A study of Mus musculus with 14 samples.

Results

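Retinal horizontal cells (HC) are interneurons of the outer retina. Their processes receive glutamate from rods and cones and send an inhibitory signal back to the photoreceptors and on to bipolar cells, which sharpens the contrast between neighboring patches of an image. HC are coupled to one another by gap junctions, are marked by the transcription factors Onecut1, Onecut2, Lhx1 and Prox1 and by the calcium-binding protein calbindin (*Calb1*), and lie beside the deep layer of retinal capillaries. HC were taken here as the nuclei that carry the label HC in the authors' annotation, which are 541 of 77676 retinal nuclei (0.696%) in 12 libraries.

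The libraries hold nuclei of whole mouse retinas, captured with PIPseq, which tags each transcript with a unique molecular identifier (UMI). 1 library (control) is labelled wild type, and the sources used here do not give whether those mice received 4-hydroxytamoxifen (4HT). The other 11 libraries (CKO) come from *Cdh5CreER;Tgfbr1 CKO/-* mice, called Tgfbr1-CKO in the labels, which carry a floxed and a deleted allele of the TGF-beta receptor gene *Tgfbr1* and were given 4HT between postnatal days 3 and 5. Cre is expressed from a *Cdh5* (VE-cadherin) promoter, which is active in endothelial cells, so HC are not the cells in which the gene is recombined. The age is postnatal day 14 in the study's methods and young adult in the labels, and the number of mice per library is not given. The comparison asks how HC transcripts differ in retinas whose vessels lack the receptor. HC of the CKO mice also carry the deleted allele, and its part in the differences was not tested. The study calls its replicates biological, but which mice went into each library is not given, so p-values measure the spread between libraries, part of which may be technical.

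Several libraries stand apart. The control and CKO replicates 1 to 3 form batch 1 of the authors' metadata, CKO 4 and 5 form batch 2, and CKO 6 to 11 form batch 3, in which some genes that have UMIs in the other batches have none, and the reverse. CKO 8 to 11 were made with a later kit (v5.0) than the rest (v4.0 PLUS). CKO 4 holds 104 nuclei and 0 HC, which allows an HC share of up to 2.88% when 0 is read as at most 3, and therefore has no HC values. CKO 10 has the shallowest HC and CKO 9 the deepest. The X-linked transcript *Xist* was at 6917 CPM (UMIs of a gene per 1000000 UMIs of the HC of a library) in control HC, between 4881 and 7134 CPM in CKO 1, 2 and 7, and at most 2.12 CPM in the other CKO libraries, so the CKO libraries differ in this sex-linked transcript. Between retina libraries, 10 barcode sequences were shared, of which 0 belong to HC nuclei.

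The HC nuclei were deep for this data set. Their median was 8629 UMIs per nucleus (range 270 to 178457) and 2733 genes. Rods, the most common type, had a median of 1064 UMIs, and retinal ganglion cells (RGC) had 8539.5. Summed over HC, the control library held 749013 UMIs, and the 10 CKO libraries with HC held from 326131 (CKO 7) to 985229 (CKO 9), with a median of 670752.

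The 5 markers were checked against the label. UMIs of *Onecut1* were found in 78.0% of HC nuclei at the median depth of 8629 UMIs, in 0.0366% of rods at 1064 UMIs and in 25.4% of RGC, the next type, at 8539.5 UMIs. *Onecut2* was found in 76.9% of HC, 0.244% of rods and 22.0% of RGC. The LIM homeobox gene *Lhx1* was found in 56.2% of HC, 0.0585% of rods and 0.521% of Müller glia, the next type. All 3 transcription factor genes were found in a larger share of HC than of any of the other 10 labelled types, and *Lhx1* had the widest gap.

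*Calb1* was found in 81.9% of HC, 0.0975% of rods and 12.0% of glycinergic amacrine cells. *Prox1*, a homeobox gene also used by bipolar and some amacrine cells, was found in 90.0% of HC and 0.105% of rods but in 92.1% of rod bipolar cells. With each nucleus thinned to 1000 UMIs, leaving out shallower nuclei, the HC shares were 31.4% for *Onecut1*, 27.1% for *Onecut2*, 11.5% for *Lhx1*, 39.4% for *Calb1* and 55.0% for *Prox1*. The thinned shares in rods were between 0.0190% and 0.136%. All 5 markers were present in 255 HC nuclei, at a median of 11429 UMIs, and at least 2 of them in 474.

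The remaining 67 HC nuclei had UMIs of 1 marker (47 nuclei, median 957 UMIs) or of none (20 nuclei, median 618 UMIs). They were unevenly spread over libraries. CKO 10 held 21 such nuclei among its 38 HC, CKO 3 held 12 among 43, and the control held 3 among 70. In nuclei with all 5 markers, the median share of UMIs from a list of 10 rod genes was 0.0633%, and in nuclei with none it was 0.688%.

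**Figure D1:**
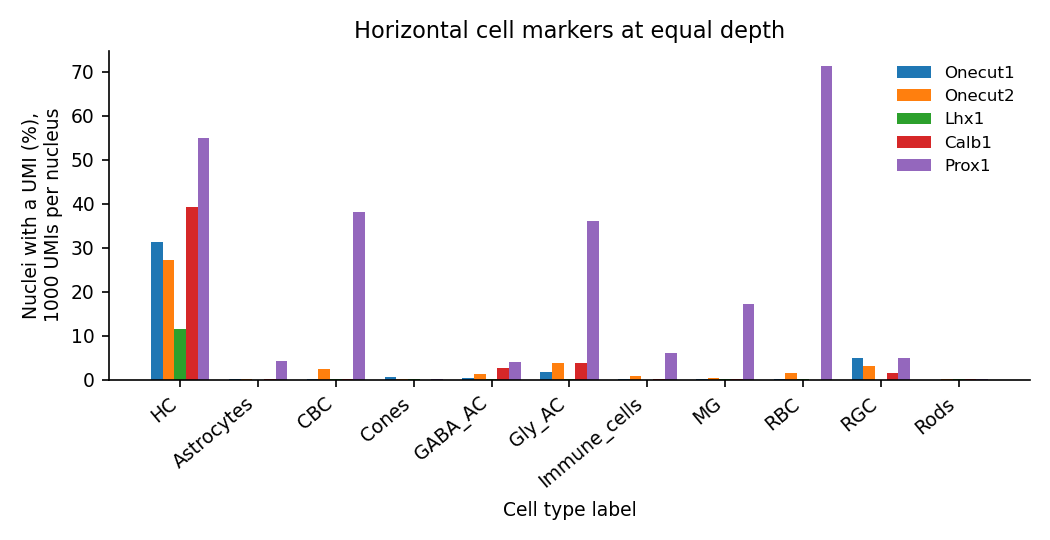
Share of nuclei (percent) with a UMI of each of the 5 HC markers, in each labelled cell type, with all nuclei thinned to 1000 UMIs (1 bar per marker, all libraries together). HC have the highest bars for *Onecut1*, *Onecut2*, *Lhx1* and *Calb1*, and rod bipolar cells (RBC) have the highest for *Prox1*, at 71.3%.

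Genes beyond the 5 markers were also far more abundant in HC than in the other types. Among genes with at least 50 CPM in HC, the one with the highest ratio to any other type was the vomeronasal receptor gene *Vmn2r15* (chr5:109433536-109445510 of GRCm39), at 361 CPM in HC and 0.891 CPM in RGC, the next type. Next came *Lhx1os*, a noncoding RNA that overlaps *Lhx1* on the opposite strand, at 98.1 CPM against 0.750 in immune cells, and *Lhx1* itself at 93.4 CPM against 1.12 in Müller glia. The others of the 10 were *Tecrl*, *Onecut3*, the kinase gene *Wnk4*, the noncoding *Gm45460* and *Gm45459*, the synaptic adhesion gene *Lrrc4* and *9030625G05Rik*. *Lrrc4* was the most abundant of them in HC at 918 CPM, against 33.8 CPM in GABAergic amacrine cells. These ratios describe the labelled nuclei, and no test was made because the labels rest on the same transcripts.

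HC were a small share of the nuclei in both genotypes, and the control lay inside the range of the CKO libraries. The share was 0.608% in the control library (70 of 11513 nuclei, 95% exact binomial interval 0.474 to 0.768%, counting error only). In the CKO libraries it was 0.730% ± 0.334 (SD, n = 11), with a lowest value of 0% in CKO 4, a median of 0.739% and a highest value of 1.16% in CKO 3. The control was above CKO 4, CKO 5 (0.467%) and CKO 9 (0.594%). The difference of means, CKO minus control, was 0.122 percentage points (two-sided exact permutation test over libraries, p = 0.583, where the smallest p that 1 library against 11 allows is 0.0833).

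Within batch 1, the 3 CKO libraries had HC shares of 0.704%, 1.11% and 1.16%, all above the control, and differed from it by 0.382 points (exact permutation p = 0.25, the smallest possible). Batches 2 and 3 hold no control. Over all 12 libraries, with CKO 4 at 0%, the difference among nuclei with at least 1000 UMIs was -0.0241 points. In batch 1 alone the CKO shares among such nuclei were 0.949%, 1.80% and 1.18%, against 0.895% in the control. For depth, the median per HC nucleus was 8969.5 UMIs in the control and 1532, 8379 and 28947 UMIs in the lowest, median and highest CKO library (CKO 10 the lowest, CKO 9 the highest). The difference of means was 1876 UMIs (exact permutation p = 0.909), and it was -135 without CKO 9, -677 in batch 1 and -1347 among libraries of the v4.0 PLUS kit.

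**Figure D2:**
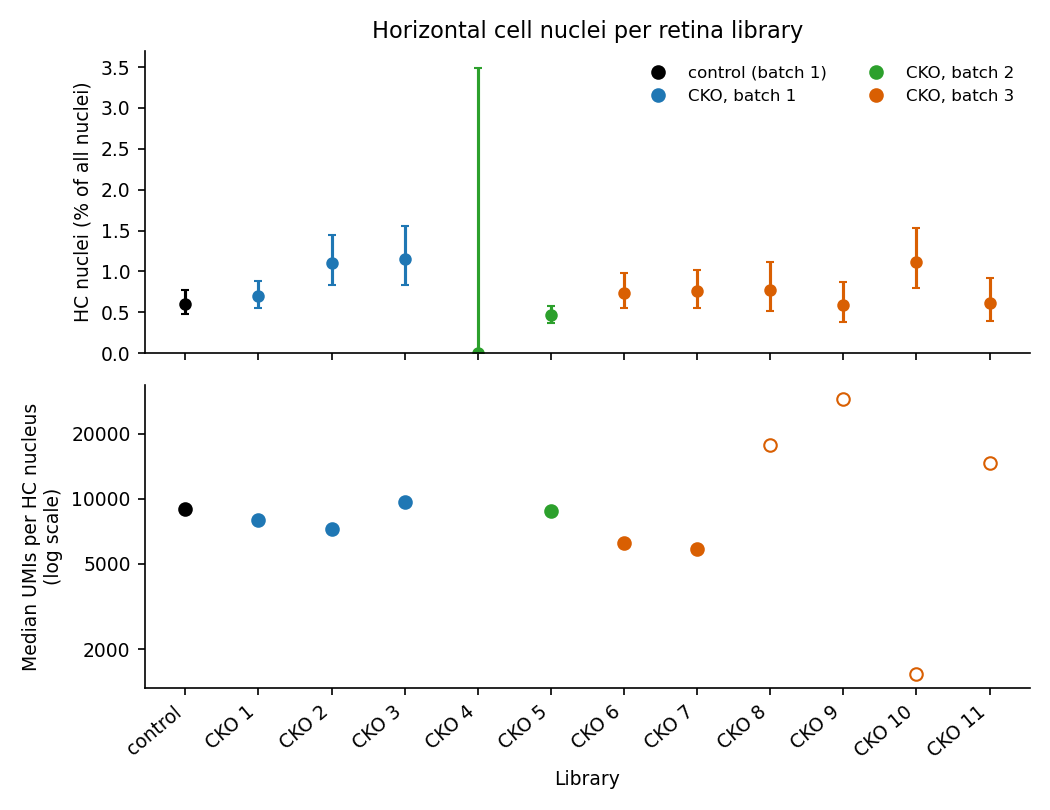
Share of nuclei labelled HC (percent, upper panel, bars are 95% exact binomial intervals) and median UMIs per HC nucleus (lower panel, log axis, open circles for the v5.0 kit) in each library, colored by genotype and batch. The control, at 0.608% and 8969.5 UMIs, lies inside the range of the CKO libraries in both measures.

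Transcript levels were compared after summing UMIs over the HC of each library. *Tgfbr1*, the deleted gene, was at 42.7 CPM in control HC and at 15.7, 49.3 and 57.9 CPM in the lowest, median and highest CKO library. CKO 5 had the low value, and the control lies inside the range of the others. The log2 fold change was -0.01 ± 0.30 (SE). HC are not the targeted cells, and a gene's total count does not show which allele it came from, so these levels check nothing about the deletion. *Tgfbr2*, the partner receptor, had 1 UMI in control HC and between 0 and 5.93 CPM in the CKO libraries.

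Between CKO and control HC, no gene passed the test, but genes of glycolysis stood among those with the smallest p-values on the higher side, and the HC markers were lower in most CKO libraries. Of 10472 genes tested, 0 were higher (0.00%) and 0 were lower (0.00%) at an adjusted p under 0.05 (edgeR's quasi-likelihood test, Benjamini-Hochberg adjustment, batch and kit as terms). At an unadjusted p under 0.05, 351 were higher (3.35%) and 312 were lower (2.98%). DESeq2 with the same terms gave 1 gene higher and 0 lower. The control was below all 10 CKO libraries for 1175 genes (11.2%) and above all of them for 220 (2.10%). With batch as a term the contrast rests on the 1 control and 3 CKO libraries of batch 1, and the spread of the lone control is taken to be that of the CKO libraries. Below, "passed" means an adjusted p under 0.05 in edgeR, and since the 1 gene of DESeq2, *Erbb4*, is in none of the lists, DESeq2 also called 0 members of each.

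*Erbb4*, which encodes a neuregulin receptor, had the smallest p among genes on the higher side. It was at 30.7 CPM in control HC (23 UMIs) and at 55.6, 116 and 272 CPM in the lowest, median and highest CKO library. All 10 CKO libraries were above the control, with CKO 5 the lowest and CKO 3 the highest. The log2 fold change was 2.59 ± 0.53 (edgeR's quasi-likelihood test, Benjamini-Hochberg adjusted p = 0.363). It was the 1 gene past the threshold in DESeq2 (adjusted p = 0.0240). Over 22 alternatives of the test, DESeq2 included, its adjusted p ranged from 6.58e-09 to 1, and it passed in 4, the others being no filter on low counts, batch 1 alone (0.0270) and the v4.0 PLUS kit alone (0.0448).

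Glycolytic enzymes and other genes that respond to low oxygen form the list with the most members on the higher side. This program shifts cells toward making ATP from glucose without oxygen, and it is switched on by hypoxia-inducible factors. Of 38 listed genes, 36 were tested and 0 passed in either direction. At an unadjusted p under 0.05, 15 of the 36 were higher, against 3.35% of all genes, and 0 were lower. The 15 include *Slc16a3*, which entered the test through the CKO libraries alone, so its p is not read. The median log2 fold change of the list was 0.68, or 0.63 without *Slc16a3*, which had 0 control UMIs, and that of all genes was 0.01. The control was below all CKO libraries for 22 of the 36 genes, *Slc16a3* among them, against 11.2% of all genes, and above all of them for 0. A list was not tested.

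The summed level of the list was 2359 CPM in control HC and 3082, 3907 and 4264 CPM in the lowest (CKO 10), median and highest (CKO 11) CKO library. All CKO libraries therefore lie above the control. *Pfkp*, the platelet form of phosphofructokinase, was the most abundant member over all libraries together, which is what most abundant means for each list here, while in control HC *Ndrg1* (523 CPM) and *Hif1a* (258 CPM) were above it. It was at 202 CPM in the control (151 UMIs) and at 294, 526 and 705 CPM in the lowest, median and highest CKO library, so the groups do not overlap. Its log2 fold change was 1.40 ± 0.35 (edgeR's quasi-likelihood test, Benjamini-Hochberg adjusted p = 0.730).

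*Hk2*, the hexokinase that commits glucose to the pathway, was at 24.0 CPM in control HC (18 UMIs) and at 29.7, 75.6 and 123 CPM in the lowest, median and highest CKO library. CKO 10 was close to the control and CKO 2 and 6 were the highest. Its log2 fold change was 1.88 ± 0.45 (edgeR, Benjamini-Hochberg adjusted p = 0.657). *Pdk1*, whose kinase keeps pyruvate out of the mitochondrion, was at 17.4 CPM in the control (13 UMIs) and at 20.8, 75.0 and 95.1 CPM in the CKO libraries. Here too CKO 10 was near the control and the other 9 were well above it. The log2 fold change was 2.04 ± 0.52 (edgeR, Benjamini-Hochberg adjusted p = 0.730).

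*Ldha*, which turns pyruvate into lactate, was at 72.1 CPM in control HC and at 78.5, 150 and 257 CPM in the lowest, median and highest CKO library, with CKO 5 the lowest. *Pkm*, the pyruvate kinase gene, was at 82.8 CPM against 129, 201 and 249 CPM. *Bnip3*, a mitophagy gene, was at 9.35 CPM (7 UMIs) against 11.9, 35.6 and 65.2 CPM. In these 3 genes each CKO library was above the control, and their log2 fold changes were 0.98, 0.92 and 1.64 (edgeR, Benjamini-Hochberg adjusted p = 0.730, 0.743 and 0.743). Other members lay closer to the control or below it. *Vegfa* was at 85.4 CPM against 95.8, 138 and 181 CPM, with a log2 fold change of 0.34, and *Ndrg1* was at 523 CPM against 320, 421 and 638 CPM, with a log2 fold change of -0.60.

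**Figure D3:**
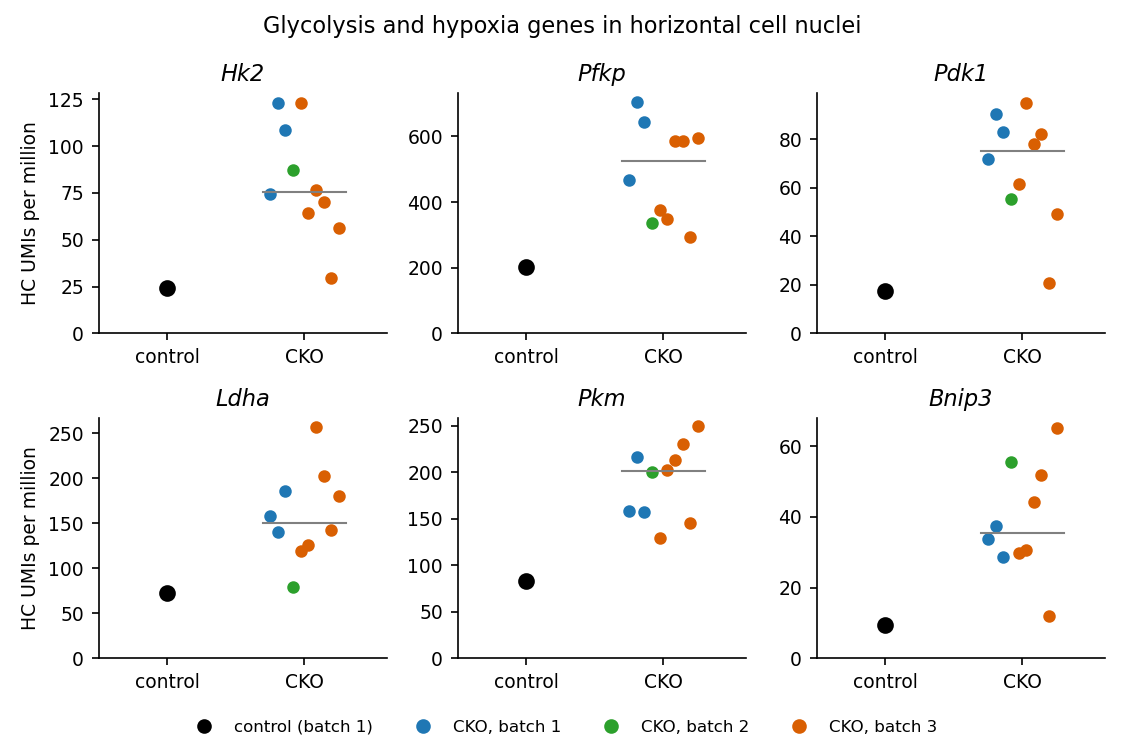
Levels of 6 glycolysis and hypoxia genes, in CPM, in HC of the control and of each CKO library (1 point per library, colored by batch, gray line at the CKO median). For each of the 6 genes the 10 CKO libraries lie above the control, and CKO 10 lies close to it for *Hk2* and *Pdk1*.

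The same genes were read in the other cell types of batch 1, as values with no test. *Pfkp* was at 202 CPM in control HC and between 466.5 and 705 CPM in HC of CKO 1 to 3. In rod bipolar cells it was at 399.97 CPM against 1100 to 1479 CPM, and in Müller glia at 310 CPM against 705 to 1135 CPM. *Hk2* was at 31.1 CPM in control rod bipolar cells against 125 to 154 CPM, and in RGC at 31.7 CPM against 47.3 to 95.4 CPM. In most types the 3 CKO libraries were above the control, as they were in HC. Of the 10 other types this held in 8 for *Pfkp* and in 7 for *Hk2*, among them, for both genes, rods, cone bipolar cells and both kinds of amacrine cells. *Pfkp* was at 23.9 CPM in control rods against 51.3 to 163 CPM, and in cone bipolar cells at 497 CPM against 983 to 1403 CPM. The exceptions were among cones, astrocytes and immune cells. *Pfkp* was at 55.3 CPM in control cones against 28.1 to 150 CPM, and in astrocytes at 160 CPM (5 UMIs) against 0 to 200 CPM. *Hk2* was at 333 CPM in control cones against 320 to 415 CPM, and in immune cells at 428 CPM (49 UMIs) against 392 to 499 CPM. In astrocytes *Hk2* had 0 UMIs in the control and in at least 1 CKO library. For the other genes of the figure the values overlapped too in some types, such as *Pdk1* in Müller glia (47.0 CPM against 45.8 to 76.0 CPM) and *Pkm* in GABAergic amacrine cells (95.5 CPM against 86.2 to 132 CPM).

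UMIs of rods, the most common retinal nuclei, were present in HC sums and were higher in most CKO libraries. The 10 rod marker genes summed to 5008 CPM in control HC and to 3226, 6153 and 8986 CPM in the lowest (CKO 5), median and highest (CKO 6) CKO library, with *Sag* the most abundant and 0 markers at 0. Of the 10, all were tested, 1 (*Rp1*) was higher at an unadjusted p under 0.05, against 3.35% of all genes, and the median log2 fold change was 0.38. Per HC nucleus, rod markers held a median of 0.241% of UMIs (quartiles 0 and 0.811%, highest 2.04%). The library medians were 0.0412% in the control and 0, 0.384 and 0.743% in the lowest, median and highest CKO library. The part of rod UMIs in the differences between all HC was not tested, but HC with few of them could be compared alone.

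HC with rod markers under 0.2% of their UMIs (rod-poor HC) numbered 262, or 48.4%, and 23 nuclei lay within 0.05 points of that boundary, which was chosen after seeing the data. The control held 40 and the 8 CKO libraries with at least 10 held between 11 and 67. In rod-poor HC, *Pfkp* was at 60.1 CPM in the control (21 UMIs) and at 135, 362 and 486 CPM in the lowest, median and highest CKO library. *Gm15283*, a noncoding RNA at chr12:73889811-73996735 of GRCm39 that overlaps *Hif1a* on the opposite strand, was at 11.5 CPM (4 UMIs) and at 135, 232 and 409 CPM. For both genes every CKO library was above the control. The sources used here do not give whether the counting used strand, so reads of *Gm15283* and *Hif1a* may not be told apart. *Hif1a* itself was at 140 CPM in control rod-poor HC and at 102, 146 and 233 CPM in the lowest, median and highest CKO library, with a log2 fold change of -0.06.

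Of 2805 genes tested in rod-poor HC of these 9 libraries, 2 were higher (0.0713%) and 0 were lower (0.00%) at an adjusted p under 0.05, and 41 were higher (1.46%) and 37 were lower (1.32%) at an unadjusted p under 0.05, by edgeR. The 2 genes were *Pfkp*, with a log2 fold change of 2.46 ± 0.42, and *Gm15283*, with 4.32 ± 0.60. *Gm15283*, with 4 UMIs in the control, passed the filter on low counts through the CKO libraries, so its p is not read. These calls depended on which libraries and nuclei entered. In rod-poor HC that also had at least 2 markers, 5 genes were higher and 4 lower. There the minimum of 10 nuclei left 6 CKO libraries, with CKO 1 and 2 alone beside the control in batch 1, so that nuclei and libraries changed together. *Pfkp*, *Gm15283* and *Pkm* were among those higher. *Pkm*, with 6 UMIs in the control, and *Gm15283* passed the filter through the CKO libraries there too, so their p is not read. Others among these 9 were *Kcnb2* and *Frmpd4* on the higher side and *Tenm2*, *Ralyl* and *Grm8* on the lower side. With all 11 libraries, which adds libraries of fewer than 10 such nuclei, 0 genes passed in either set of nuclei, and *Pfkp* had a log2 fold change of 2.47 and 2.38 with adjusted p = 0.267 and 0.416. All 4 versions were chosen after seeing the data.

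In rod-poor HC, 14 genes of the glycolysis and hypoxia list were tested, 4 were higher at an unadjusted p under 0.05, against 1.46% of all genes, and the median log2 fold change of the 14 was 0.87. The 4 include *Pdk1* and *Pkm*, which had 1 and 6 control UMIs. Both passed the filter on low counts through the CKO libraries, so their p is not read. The list summed to 1755 CPM in the control and to 2380, 2868 and 3678 CPM in the lowest, median and highest CKO library, so the groups do not overlap. *Pdk1* had 1 UMI in control rod-poor HC (2.86 CPM) and 83 UMIs over the CKO libraries, with levels from 0 to 142 CPM. *Hk2* had 0 UMIs in the control and 46 over the CKO libraries, and *Ldha* had 0 and 12. Levels of both in rod-poor HC were below those in all HC, with CKO medians of 22.0 and 1.69 CPM.

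Several genes with small p-values in all HC were at low levels in rod-poor HC. *Erbb4* had 0 UMIs in control rod-poor HC and 10 UMIs over the 8 CKO libraries, with a CKO median of 5.78 CPM, against 116 CPM in all HC. *Gm26954*, a noncoding RNA that overlaps the presynaptic gene *Pclo* on the opposite strand, was at 5.73 CPM in control rod-poor HC and at a CKO median of 2.76 CPM, against 203 and 403 CPM in all HC. *Socs2*, *F630040K05Rik* and *Rpl14* had 0 UMIs in control rod-poor HC and 11, 6 and 9 UMIs over the CKO libraries. For 3 other genes rod-poor HC held more UMIs. *Mt1* had 0 UMIs in control rod-poor HC and 49 over the CKO libraries, at 0, 14.6 and 71.1 CPM in the lowest, median and highest. The transcription factor gene *Stat3* was at 11.5 CPM (4 UMIs) in control rod-poor HC and at 40.5, 49.1 and 126 CPM in the lowest, median and highest CKO library, and the synaptic vesicle gene *Syn3* was at 450 CPM against 197, 245 and 327 CPM. The groups do not overlap for *Stat3* or *Syn3*, and neither passed the test in rod-poor HC (edgeR, Benjamini-Hochberg adjusted p = 1 and 0.965).

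Promoter windows are shown for the 3 of the 6 genes plotted by library that have 1 window each, because these genes had higher values together. They are RefSeq sequences of GRCm38.p6, from 250 bases before to 50 bases after the gene start, on the minus strand, with capitals for ACGTG or GCGTG on either strand, the letters that hypoxia-inducible factors are known to bind. The *Hk2* window is chr6:82774405-82774704 with 2 matches, the *Pfkp* window chr13:6648722-6649021 with 4, and the *Bnip3* window chr7:138909457-138909756 with 5. The other 3 genes have 2 windows each, with 2 and 0 matches for *Pdk1*, 7 and 2 for *Ldha*, and 0 and 2 for *Pkm*. Of all 32851 windows of this length, 43.8% held at least 1 match, and of the 52 windows of 34 list genes, 39 did. A match is a description, not a site.

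Hk2: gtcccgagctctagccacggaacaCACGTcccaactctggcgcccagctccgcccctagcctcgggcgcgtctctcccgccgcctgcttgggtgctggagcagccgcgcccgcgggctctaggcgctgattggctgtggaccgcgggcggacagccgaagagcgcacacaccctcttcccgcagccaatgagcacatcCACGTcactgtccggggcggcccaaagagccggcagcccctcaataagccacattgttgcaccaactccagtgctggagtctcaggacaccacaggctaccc
Pfkp: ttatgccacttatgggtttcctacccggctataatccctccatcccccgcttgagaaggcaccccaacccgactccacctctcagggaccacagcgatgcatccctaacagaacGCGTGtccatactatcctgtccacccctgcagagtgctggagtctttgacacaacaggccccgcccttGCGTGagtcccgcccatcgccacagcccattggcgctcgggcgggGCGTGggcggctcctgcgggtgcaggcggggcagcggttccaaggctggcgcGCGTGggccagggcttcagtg
Bnip3: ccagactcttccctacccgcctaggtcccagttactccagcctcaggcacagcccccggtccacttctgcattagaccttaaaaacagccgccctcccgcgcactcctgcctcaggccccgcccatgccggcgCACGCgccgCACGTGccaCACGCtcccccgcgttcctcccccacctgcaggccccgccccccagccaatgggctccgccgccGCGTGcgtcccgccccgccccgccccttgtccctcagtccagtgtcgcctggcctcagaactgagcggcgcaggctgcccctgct

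The genes that mark HC were at lower values in most CKO libraries. *Onecut1* was at 387 CPM in the control and at 160, 262 and 631 CPM in the lowest (CKO 3), median and highest (CKO 5) CKO library. *Lhx1* was at 127 CPM against 42.9, 77.7 and 214 CPM, and *Prox1* was at 881 CPM against 443, 704 and 1209 CPM. For each of these 3 genes, 9 of 10 CKO libraries were below the control, and CKO 5 was above it. *Onecut2* was at 283 CPM against 132, 240 and 522 CPM, and *Calb1* was at 502 CPM against 265, 369 and 617 CPM, with 7 of 10 CKO libraries below the control in both.

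The log2 fold changes were -0.85 ± 0.35 for *Onecut1*, -0.69 ± 0.39 for *Onecut2*, -1.13 ± 0.36 for *Lhx1*, -0.45 ± 0.41 for *Calb1* and -0.78 ± 0.32 for *Prox1*. None passed the test (edgeR's quasi-likelihood test, Benjamini-Hochberg adjusted p between 0.730 and 0.904), and 3 of the 5 were lower at an unadjusted p under 0.05, against 2.98% of all genes. With the kit alone as a term 0 of the 5 were, against 135 of 10472 genes, with a median log2 fold change of -0.36. Without CKO 3 the log2 fold change of *Onecut1* was -0.58 with an unadjusted p above 0.05. In rod-poor HC the same log2 fold changes were -0.25, -0.43, -0.39, -0.02 and -0.32. There *Onecut1* was at 641 CPM in the control and at 365, 599 and 784 CPM in the CKO libraries, and *Prox1* was at 1346 CPM against 1008, 1230 and 1485 CPM. The control thus lies inside the CKO range for both in rod-poor HC.

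In the wider list of HC identity and differentiation genes, 19 of 24 were tested, 0 passed, 5 were lower at an unadjusted p under 0.05, against 2.98% of all genes, and 0 were higher. Their median log2 fold change was -0.68, against 0.01 for all genes. The control was above all CKO libraries for 1 of the 19 (*Tfap2a*), against 2.10% of all genes. The number lower at an unadjusted p under 0.05 depended on single libraries: it was 2 without CKO 3 and 11 without CKO 1, with medians of -0.46 and -0.90. Genes of any kind under that p, in either direction, numbered 663 of 10472 in the test reported. They numbered 532 of 10358 without CKO 3 and 850 of 10277 without CKO 1. In rod-poor HC 0 of 13 list members were lower, against 1.32% of all genes, with a median of -0.25. With the kit alone as a term 1 was, against 135 of 10472 genes, with a median of -0.35.

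The list summed to 9364 CPM in control HC and to 4187, 6881 and 13266 CPM in the lowest (CKO 8), median and highest (CKO 5) CKO library. In batch 1 it summed to 7869, 6558 and 4698 CPM in CKO 1, 2 and 3, whose rod markers summed to 6189, 7207 and 8697 CPM, against 5008 CPM in the control. *Tpm3*, a tropomyosin gene, was its most abundant member, at 1884 CPM against 780, 1484 and 2994 CPM. *Megf11*, whose receptor spaces HC of one kind apart from each other, was at 714 CPM against 310, 524 and 1067 CPM, with 9 of 10 CKO libraries below the control. *Ptf1a*, a factor of HC precursors, had 0 UMIs in HC of all libraries, and *Septin4* was counted in batches 1 and 2 but had 0 UMIs in batch 3. *Septin4* is part of the list sums above, at 961 CPM in the control. The sums of CKO 6 to 11 lack it, which enters the lowest and the median CKO sum. The part of rod UMIs in the lower values of all HC was not tested.

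*Socs2* and *Stat3* were also among the 10 genes of smallest p on the higher side. For *Socs2*, and for *F630040K05Rik* and *Mt1* below, the control held at most 3 UMIs. Such genes passed the filter on low counts through the CKO libraries, so their place by p is not read. *Stat3*, a transcription factor that cytokine receptors activate, was at 21.4 CPM in control HC (16 UMIs) and at 55.2, 107 and 191 CPM in the lowest, median and highest CKO library. *Socs2*, an inhibitor of cytokine signaling, had 1 UMI in the control (1.34 CPM) and was at 4.83, 25.4 and 31.5 CPM. For both genes all 10 CKO libraries were above the control. In batch 1, the CKO to control ratio of *Socs2* was 18.4, with a counting interval of 3.16 to 739. *Stat3* had a log2 fold change of 2.00 ± 0.53 (edgeR, Benjamini-Hochberg adjusted p = 0.730).

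The other genes of smallest p on the higher side were of mixed kinds. The metallothionein gene *Mt1*, which binds zinc, had 3 UMIs in the control and was at 11.9, 22.7 and 51.2 CPM in the CKO libraries, with a batch 1 ratio of 8.85 (2.92 to 43.8). The noncoding *F630040K05Rik* had 1 UMI in the control and was at 15.1, 47.9 and 53.3 CPM, with a batch 1 ratio of 23.8 (4.14 to 954). The ribosomal protein gene *Rpl14* had 5 UMIs (6.68 CPM) in the control and was at 8.49, 27.3 and 39.6 CPM. Each of these 3 was above the control in all 10 CKO libraries. *Gm26954* was at 203 CPM against 178, 403 and 692 CPM, with 1 CKO library below the control.

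On the lower side, *Gm17167* came closest to the threshold. This noncoding RNA, at chr4:42206998-42235313 of GRCm39, overlaps 5 annotated genes, so that its reads may not be told apart from theirs. It was at 61.4 CPM in control HC (46 UMIs) and at 10.0, 16.3 and 19.5 CPM in the lowest, median and highest CKO library, so every CKO library was below the control. The log2 fold change was -2.33 ± 0.37 (edgeR's quasi-likelihood test, Benjamini-Hochberg adjusted p = 0.0610). Over 22 alternatives its adjusted p ranged from 0.000230 to 0.954, and it passed in 3, which were batch 1 alone, the v4.0 PLUS kit alone and no filter on low counts.

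*Xlr4a*, an imprinted gene of the X chromosome, was at 54.7 CPM in control HC and at 1.01, 6.08 and 21.5 CPM in the lowest, median and highest CKO library. *Pm20d1*, which encodes an enzyme of N-acyl amino acids, was at 76.1 CPM against 18.6, 29.9 and 84.6 CPM. All CKO libraries were below the control for *Xlr4a*, and 9 of 10 were for *Pm20d1*, where CKO 5 was above it. Their log2 fold changes were -3.35 ± 0.67 and -1.97 ± 0.40 (edgeR, Benjamini-Hochberg adjusted p = 0.363 for both), and both passed in the same 3 alternatives as *Gm17167*.

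*Syn3*, which encodes a synaptic vesicle protein, was at 268 CPM in control HC and at 147, 177 and 241 CPM in the lowest, median and highest CKO library. *Gclc*, whose enzyme makes the precursor of glutathione, was at 162 CPM against 62.4, 81.9 and 122 CPM. *Naaladl2* was at 554 CPM against 265, 350 and 489 CPM. For these 3 genes, and for *Tmem181a* and *Rab26os*, the control was above all CKO libraries. The log2 fold changes were -0.98 ± 0.22 for *Syn3* and -1.32 ± 0.30 for *Gclc* (edgeR, Benjamini-Hochberg adjusted p = 0.494 for both). *Mettl24* and *Btaf1* completed the 10 genes of smallest p, with 9 and 8 of 10 CKO libraries below the control.

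HC signal back to photoreceptors through gap junction proteins, proton transport and channels at their dendritic tips. Of 14 genes listed for this feedback, 10 were tested, 0 passed, 0 were higher and 2 were lower at an unadjusted p under 0.05, against 3.35% and 2.98% of all genes, and the median log2 fold change was 0.01, the same as for all genes. The 2 were the bicarbonate transporters *Slc4a4*, at 76.1 CPM in the control and 33.8, 48.8 and 101 CPM in the CKO libraries, and *Slc4a3*, at 1198 CPM against 399, 826 and 1527 CPM. Both had CKO libraries above and below the control. *Gja10*, the connexin that couples HC, was at 21.4 CPM against 9.09, 18.4 and 39.9 CPM, and *Car2*, a carbonic anhydrase gene, was at 57.4 CPM against 26.6, 82.1 and 109 CPM.

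HC use GABA and carry receptors for it. In the GABA list, 18 of 20 genes were tested, 0 passed, 0 were higher and 1 was lower at an unadjusted p under 0.05, against 3.35% and 2.98% of all genes, with a median log2 fold change of 0.09. That gene was the receptor subunit *Gabra2*, at 303 CPM in control HC and at 110, 197 and 324 CPM in the lowest, median and highest CKO library, with 9 of 10 below the control.

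Glutamate receptors carry the photoreceptor input of HC. Of 32 listed genes 27 were tested, 0 passed, 2 were higher and 4 lower at an unadjusted p under 0.05, against 3.35% and 2.98% of all genes, and the median log2 fold change was -0.23. The AMPA receptor subunit *Gria4*, the most abundant member, was at 2040 CPM in control HC and at 1139, 1379 and 1866 CPM in the lowest, median and highest CKO library, all below the control. The NMDA receptor subunit *Grin1* was at 138 CPM against 70.1, 110 and 187 CPM. The kainate receptor subunit *Grik3* was at 5.34 CPM (4 UMIs) against 6.04, 26.0 and 35.5 CPM, all above the control. Their log2 fold changes were -0.69 ± 0.30, -0.77 ± 0.29 and 1.62 ± 0.64 (edgeR, Benjamini-Hochberg adjusted p = 0.763, 0.743 and 0.743).

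Of 27 calcium handling genes 23 were tested, 0 passed, 1 was higher and 0 were lower at an unadjusted p under 0.05, against 3.35% and 2.98% of all genes, and the median log2 fold change was -0.04. The 1 gene was the sodium-calcium exchanger *Slc8a3*, at 156 CPM in control HC and at 252, 274 and 317 CPM in the lowest, median and highest CKO library. The CKO libraries lie close together and all are above the control. Its log2 fold change was 0.59 ± 0.24 (edgeR, Benjamini-Hochberg adjusted p = 0.743). *Cacna2d3*, a calcium channel subunit gene and the most abundant member, was at 1712 CPM against 867, 1215 and 2270 CPM.

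Adhesion and wiring genes place HC processes in the outer plexiform layer. All 38 were tested, 0 passed, 0 were higher and 5 were lower at an unadjusted p under 0.05, against 3.35% and 2.98% of all genes, with a median log2 fold change of -0.03. *Lrrtm4*, which encodes a postsynaptic adhesion protein, was at 878 CPM in control HC and at 360, 564 and 717 CPM in the lowest, median and highest CKO library. All CKO libraries were below the control, with CKO 5 the lowest. The log2 fold change was -0.66 ± 0.27 (edgeR, Benjamini-Hochberg adjusted p = 0.748).

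HC also produce signals read by vessels, and genes of vascular signaling cover receptors and coreceptors as well as signals. In a list of such genes 18 of 30 were tested, 0 passed, 1 was higher and 2 were lower at an unadjusted p under 0.05, against 3.35% and 2.98% of all genes, and the median log2 fold change was -0.18. The growth factor gene *Fgf2* was at 8.01 CPM in control HC (6 UMIs) and at 6.13, 31.9 and 42.4 CPM in the lowest, median and highest CKO library. *Tspan12*, a coreceptor for norrin, was at 46.7 CPM against 6.13, 31.0 and 49.4 CPM, and *Vegfc* was at 20.0 CPM against 4.67, 12.5 and 33.7 CPM. For all 3 genes the ranges overlap the control.

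Of 39 TGF-beta pathway genes 24 were tested in HC, 0 passed, 2 were higher and 0 were lower at an unadjusted p under 0.05, against 3.35% and 2.98% of all genes, and the median log2 fold change was 0.03. *Skil*, which encodes a repressor of SMAD proteins, was at 14.7 CPM in control HC (11 UMIs) and at 27.6, 45.0 and 62.9 CPM in the lowest, median and highest CKO library. The activin receptor gene *Acvr2b* was at 28.0 CPM (21 UMIs) against 29.7, 65.1 and 80.6 CPM. All CKO libraries were above the control for both. The log2 fold changes were 1.45 ± 0.47 and 1.10 ± 0.39 (edgeR, Benjamini-Hochberg adjusted p = 0.730 and 0.743).

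Lists of cell stress and defense were sparse in HC. Of 32 interferon and antigen presentation genes 4 were tested, 0 passed, 2 were higher and 0 were lower at an unadjusted p under 0.05, against 3.35% and 2.98% of all genes, and the median log2 fold change was 1.48. Among them was the antigen presentation gene *H2-K1*, with 3 UMIs in the control, 11.2 to 23.3 CPM in the CKO libraries and a batch 1 ratio of 3.97 (1.25 to 20.2). With so few control UMIs it too entered the test through the CKO libraries, so its p is not read. In immediate early genes, 7 of 21 were tested with 0 passing, 0 at an unadjusted p under 0.05 and a median of -0.09. In neuronal injury and unfolded protein response genes, 15 of 24 were tested with 0 passing and a median of -0.28, and 1, the stathmin gene *Stmn4*, was lower at an unadjusted p under 0.05 (2.98% of all genes were), at 22.7 CPM against 2.25, 10.5 and 21.5 CPM.

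Markers of other cell types were read in the HC sums, and their part in the results above was not tested. All 9 cone markers had positive log2 fold changes, with a median of 1.49 and 1 (*Pde6h*) higher at an unadjusted p under 0.05, against 3.35% of all genes. Their sum was 676 CPM in the control and 656, 1065 and 1812 CPM in the lowest, median and highest CKO library, with *Thrb* the most abundant. Red blood cell genes summed to 5.34 CPM in control HC and to 15.3, 159 and 509 CPM, led by *Hbb-bs*, which had 2 UMIs in the control and a batch 1 ratio of 32.3 (8.83 to 269). Of the 5 listed, 4 were tested, of which 2 had 0 control UMIs and entered the test through the CKO libraries alone, so their count past an unadjusted p under 0.05 is not read. All CKO libraries had more of these UMIs than the control, and CKO 7 and 10 had the fewest.

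The remaining marker lists had few members past an unadjusted p under 0.05, which 3.35% of all genes passed on the higher and 2.98% on the lower side. For rod bipolar cells it was 1 of 7 tested (*Grm6*, higher), with a median log2 fold change of -0.01 and sums of 1656 CPM against 782, 1851 and 2189 CPM. For cone bipolar cells it was 0 of 7 (median 0.32, 736 CPM against 480, 969 and 1316 CPM), for amacrine cells 0 of 10 (median 0.36, 1339 CPM against 1076, 1280 and 1386 CPM) and for ganglion cells 0 of 5 (median 0.56, 49.4 CPM against 26.6, 79.1 and 139 CPM). For Müller glia it was 0 of 8 (median 0.22, 347 CPM against 118, 469 and 759 CPM). Endothelial and mural markers gave 0 of 4 (median -0.21, 58.7 CPM against 14.5, 78.9 and 107 CPM). In these 6 lists the sums of the groups overlap. Immune markers gave 0 of 2, with sums of 2.67 CPM against 8.90, 15.4 and 51.7 CPM, and the 1 astrocyte marker tested, *Gfap*, had 0 UMIs in control HC and 1.21, 6.43 and 20.8 CPM in the CKO libraries. It had an unadjusted p under 0.05, which is not read because it entered the test through the CKO libraries alone. Of 10 sex-linked genes 1, *Eif2s3x*, was lower. *Eif2s3y* of the Y chromosome had 0 UMIs in the control and in CKO 1, 2 and 7. Its unadjusted p was under 0.05 on the higher side and is not read, for the same reason as that of *Gfap*.

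Whether HC differed from the rest of the same retinas was tested directly, as the CKO effect in HC minus that in all other nuclei of the library. Of 10472 genes, 0 were higher (0.00%) and 0 were lower (0.00%) in HC at an adjusted p under 0.05 by edgeR, the one tool run, and 288 (2.75%) and 257 (2.45%) at an unadjusted p under 0.05. In the glycolysis and hypoxia list 4 of 36 were higher, 1 was lower, and the median difference was 0.11. *Pfkp* had a difference of 0.41 ± 0.26 and *Hk2* of 1.05 ± 0.40 (edgeR, Benjamini-Hochberg adjusted p = 0.918 and 0.917). None of the 36 members passed the test of a difference between HC and the other nuclei.

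*Erbb4* had the smallest p among genes higher in HC than in other nuclei, with a difference of 2.39 ± 0.49 on the log2 scale (edgeR, Benjamini-Hochberg adjusted p = 0.377). The laminin gene *Lama3* had the smallest among those lower, at 220 CPM in control HC and at 70.0, 131 and 247 CPM in the lowest, median and highest CKO library, with a difference of -3.14 ± 0.60 (adjusted p = 0.377). It passed without CKO 10 (adjusted p = 0.0221) and without CKO 11 (0.0341), and its adjusted p reached 0.99994 over 14 alternatives. The intermediate filament gene *Vim* was at 324 CPM in control HC and at 185, 258 and 445 CPM, with a difference of -1.78 ± 0.34 (adjusted p = 0.377). *Syn3* and *Gclc* followed, with differences of -1.10 ± 0.23 and -1.52 ± 0.33 (edgeR, adjusted p = 0.377 and 0.481). For *Lama3* and *Vim* the control lies inside the CKO range in HC.

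The other genes of smallest p in this contrast were on the higher side *Socs2*, *Plekha7*, *Gldc* and *Lifr* and on the lower side *Wipf1*. *Lifr*, the receptor for leukemia inhibitory factor, was at 25.4 CPM in control HC (19 UMIs) and at 24.2, 65.2 and 92.2 CPM in the lowest, median and highest CKO library. *Gldc*, which encodes the glycine decarboxylase, was at 21.4 CPM (16 UMIs) against 30.7, 44.3 and 68.2 CPM. *Plekha7*, a gene of adherens junctions, was at 21.4 CPM (16 UMIs) against 31.4, 58.7 and 74.1 CPM. All CKO libraries were above the control for *Gldc* and *Plekha7*, and 9 of 10 for *Lifr*. In rod-poor HC these 3 genes were close to absent, with 0, 0 and 2 UMIs in the control and 3, 5 and 8 over the CKO libraries for *Gldc*, *Plekha7* and *Lifr*. The differences were 1.31 ± 0.35 for *Lifr*, 1.29 ± 0.34 for *Gldc* and 1.34 ± 0.35 for *Plekha7* (edgeR, Benjamini-Hochberg adjusted p = 0.917 for each).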

How the data were processed

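The authors counted UMIs with PIPseeker 3.3.0 on GRCm39, removed background with CellBender 0.3.2 and doublets with SOLO (scVI-tools 1.2.2-post2), and removed mixed nuclei and clusters of CKO 4 and 5 by hand. The deposited values are whole counts of UMIs per gene and nucleus after these steps, beside the authors' labels for cell type, batch and kit. The submitters' processing notes name mm10 and Seurat, whereas the methods give GRCm39. Gene positions are from GENCODE M39 on GRCm39. The markers, members and gene lists were chosen with earlier results of these data known.

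UMIs were summed over HC per library, for libraries with at least 10 HC nuclei, and CPM are relative to that sum. Genes with UMIs both in batches 1 and 2 together and in batch 3 (24645 of 28316) that passed edgeR's filter on low counts were tested with edgeR 4.0.16 (limma 3.58.1, R 4.3.3; TMM, quasi-likelihood test, batch and kit as terms, Benjamini-Hochberg adjustment, threshold 0.05). DESeq2 1.42.0 was an alternative. The same tool tested genotype by cell class, with library as block. For shares and depths, exact permutation tests (two-sided) were used. Counting intervals of ratios are 95% exact conditional binomial intervals. Intervals and limits cover counting error only. Sums and permutation tests were made in Python 3.11.15 (pandas 2.3.3, scipy 1.17.1, numpy 2.4.6), and figures with matplotlib 3.10.9.

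Genes named are the 5 markers, *Tgfbr1* and *Tgfbr2*, the 10 genes with the highest ratio to any other type at 50 CPM or more, the 10 of smallest p in each direction, the 5 of smallest p in each direction for HC against other nuclei, up to 4 members of smallest p of each list, and the HC identity and feedback lists by level. *Gm15283*, *Pkm*, *Bnip3*, *Vegfa*, *Ndrg1*, *Hif1a*, *Slc16a3*, *Kcnb2*, *Frmpd4*, *Tenm2*, *Ralyl*, *Grm8* and *Xist*, and the most abundant members of lists, were chosen after their values were seen. Some genes that these rules select are not reported here. Alternatives covered covariates, batch 1 alone, the v4.0 PLUS kit alone, libraries with at least 30 HC nuclei, each CKO library left out, RLE scaling, DESeq2, no filter on low counts, all genes, nuclei with at least 2 markers, other comparison nuclei, and, chosen after seeing the data, rod-poor HC in 4 versions and the fit without CKO 3 and 10.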

Additional observations from a re-analysis of the deposited data

Results flagged for a closer look

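Among the 10 CKO libraries with HC, 10 of 58 measures examined had 1 library far from the rest, by the gap to its neighbor relative to the whole range. Chance alone marks about 1 in 20 groups, and the measures share libraries. CKO 5 was the highest for *Onecut1* at 631 CPM (next 326), *Onecut2* at 522 CPM (next 326), *Lhx1* at 214 CPM (next 101) and *Prox1* at 1209 CPM (next 816). It was also the highest for *Megf11* at 1067 CPM (next 645), *Grin1* at 187 CPM (next 126) and *Wipf1* at 343 CPM (next 199), and the lowest for *Tgfbr1* at 15.7 CPM (next 41.9). CKO 1 was the highest for *Mt1* at 51.2 CPM (next 32.7), and CKO 7 for *Xlr4a* at 21.5 CPM (next 11.2).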

How the results depend on the processing

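Among nuclei with at least 1000 UMIs the HC share difference was -0.0241 points, with CKO 4, of 104 nuclei, at 0%. That value was not recomputed without CKO 4. In the other versions run the HC share difference kept its sign, and without each CKO library it ranged from 0.0797 to 0.195. From 0.122 in the test reported it became 0.382 in batch 1 and 0.233 without CKO 4 and 5. Counting nuclei of any label with at least 2 of the 5 markers gave 1.43 points, but this does not measure HC alone, since 21.0% of 6474 glycinergic amacrine nuclei and 20.7% of 1690 RGC meet it too. The difference in UMIs per HC was -677 in batch 1, -1347 in the v4.0 PLUS kit and -2217 in libraries with at least 30 HC nuclei, and from -135 to 2911 with each CKO library left out. Genes higher in CKO HC, 0 in the test reported, numbered 2 in batch 1 alone, 1 in the v4.0 PLUS kit alone, 1 in DESeq2, 26 with no filter on low counts, 2 in rod-poor HC and 5 in rod-poor HC with at least 2 markers. Genes lower numbered 3, 3 and 17 in batch 1, the v4.0 PLUS kit and no filter, and 4 in rod-poor HC with at least 2 markers. Genes lower in HC than in other nuclei ranged from 0 to 1 with each CKO library left out. Glycolysis and hypoxia genes higher at an unadjusted p under 0.05, 15 in the test reported, numbered 4, 6, 4 and 4 in the rod-poor versions (rod-poor, rod-poor with at least 2 markers, and both with all 11 libraries), in which 14, 18, 15 and 15 members could be tested. Each of these counts includes *Pdk1* and *Pkm*, whose p in rod-poor HC is not read. Genes of any kind under that p, in either direction, numbered 78 of 2805, 154 of 3257, 61 of 3329 and 60 of 3239 in these versions. HC identity genes lower, 5 in the test reported, numbered 1 with the kit alone or no covariate, 8 in batch 1, 12 with no filter, 0 in each rod-poor version, 2 without CKO 3 and 10, and 2 to 11 with each CKO library left out. Genes of any kind under that p, in either direction, were 663 of 10472 in the test reported. They were 351 of 10472 with the kit alone, 363 of 10472 with no covariate, 632 of 9345 in batch 1 and 1070 of 21511 with no filter. Without CKO 3 and 10 they were 537 of 10395, and with each CKO library left out from 532 to 850. Of 1358 fold changes of 56 single genes, 1352 kept their direction. Those that turned were *Calb1* at 0.0648 and 0.0333 in rod-poor HC with at least 2 markers (10-nuclei minimum and all 11 libraries) and *Tgfbr1* at 0.000763 in the v4.0 PLUS kit, 0.00801 with no filter, 0.0222 in HC with at least 2 markers and 0.0457 without CKO 1. With each CKO library left out, *Tgfbr1* ranged from -0.0701 to 0.0457. In 33 cases a gene passed the adjusted threshold in an alternative. They include *Gm15283* and *Pkm* in rod-poor HC, whose p there is not read. Why the 33 passed was not tested. No paired analysis was possible because the control has 1 library. A gene at 1 UMI in control HC is at 1.34 CPM, which limits folds of low genes.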

Other observations

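With no filter on low counts, 26 genes were higher in CKO HC and 17 were lower at an adjusted p under 0.05 in edgeR's quasi-likelihood test, against 0 and 0 with the filter. *Erbb4* (adjusted p = 6.58e-09), *Stat3* (0.000590), *Hk2* (0.00161), *Pdk1* (0.00175) and *Pfkp* (0.00268) were among those higher. The 26 also held 4 genes of the Y chromosome, with *Eif2s3y* at the smallest adjusted p of all (1.28e-18), 3 hemoglobin genes, led by *Hbb-bs* (7.47e-11), and 2 cone genes. Among those lower were *Xlr4a* (4.10e-06), *Gm17167* and *Pm20d1* (0.000230 for both) and *Gclc* (0.00516). These genes were picked after their values were seen.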
